A study of Homo sapiens with 8 samples.

Results

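The genes described here are 10 heat shock chaperones of the cytosol and the mitochondrion, chosen by name from the 48162 genes listed in every library: HSPA1A, HSPA1B, HSPA8, HSPH1, HSP90AA1, HSP90AB1, HSPB1, DNAJB1, BAG3 and HSPD1. Each had 1 row, and all 10 passed the filter on low values that left 14311 genes to test. RNA sequencing was done on KYSE70 and KYSE450, established lines of human esophageal squamous cell carcinoma, at passages 5 to 10. The long noncoding RNA NMR was overexpressed from a transfected pcDNA3.1 plasmid, or knocked down with a lentivirus whose particles were made in HEK 293T cells, a human embryonic kidney line used for packaging. The series holds 8 libraries in 4 groups: NMR overexpression, its control, NMR knockdown and its hairpin control, each with 1 library from KYSE70 and 1 from KYSE450. Each manipulation and its control are called an arm here, the plasmid arm and the lentiviral arm, although the labels do not say what vector, if any, the plasmid control received. No label says that the libraries came from separate cultures or clones, so the p-values reflect the spread of these libraries alone, part of which may be technical. In the tests between the lines, between the arms and of their interaction, treated and control libraries stand as replicates. The spread there also holds differences between treated and control libraries, and between the lines also those between the arms. The level of NMR itself was not analysed here, so neither manipulation was checked on its target.

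Heat shock chaperones bind unfolded proteins and help them fold, keep them soluble or pass them on for degradation. HSP70 proteins work in an ATP cycle that J-domain proteins start and nucleotide exchange factors reset, HSP90 proteins finish the folding of client kinases and receptors, small heat shock proteins hold unfolded proteins without ATP, and HSP60 folds proteins in the mitochondrial matrix. Heat shock factor 1 (HSF1) raises many of these genes under heat or proteotoxic stress by binding heat shock elements, repeats of GAA in alternating orientation, and squamous epithelia and their tumours express several of the proteins at high levels.

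The promoters are shown because the members differ in how many such units they hold. In RefSeq's windows on GRCh38.p14, the 250 bases before each annotated start were searched on both strands for 2 adjoining units (GAANNTTC or TTCNNGAA) and for 3 (GAANNTTCNNGAA or TTCNNGAANNTTC), where every run of 3 also contains runs of 2. The 10 members had 16 windows. Of these, 8 held 2 units, 1 in each of 8 members, against 11.6% of all 35116 windows and 14.0% of the 27305 genes that have a window. In 4 members, HSPA8, HSP90AA1, HSP90AB1 and HSPD1, the window also held 3 units, against 0.441% of all windows and 0.557% of genes. The windows of HSPH1, on chromosome 13, and BAG3, on chromosome 10, held no match, which says only that these letters are not in those windows. A match describes the sequence and is no evidence of binding. One stretch of 30 bases is given per gene, 5′ to 3′ on the gene's strand, with the longest match in capitals.
HSPA1A (chr6:31815425-31815454, plus strand): gcgaaaaccctgGAATATTCccgacctggc
HSPA1B (chr6:31827621-31827650, plus strand): gcgaaacccctgGAATATTCccgacctggc
HSPA8 (chr11:123062171-123062200, minus strand): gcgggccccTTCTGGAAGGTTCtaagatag
HSP90AA1 (chr14:102087112-102087141, minus strand): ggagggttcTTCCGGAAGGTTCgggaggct
HSP90AB1 (chr6:44247822-44247851, plus strand): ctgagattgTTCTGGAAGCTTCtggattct
HSPB1 (chr7:76302479-76302508, plus strand): tccttaacgagaGAAGGTTCcagatgaggg
DNAJB1 (chr19:14518427-14518456, minus strand): tggcgggctctgGAAGCTTCcgccggacgg
HSPD1 (chr2:197500061-197500090, minus strand): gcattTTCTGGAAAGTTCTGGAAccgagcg
The matches ended between 40 bases (DNAJB1) and 228 bases (HSPD1) before the start. The stretches of HSPA8, HSP90AA1 and HSPD1 lie in exons of longer GENCODE transcripts. The stretches of HSPA1A and HSPA1B carry the same element, and these neighbouring genes are also near-identical downstream: 69.9% of the 100-base windows along the longest HSPA1A transcript occur letter for letter in another gene's transcript. Reads from the pair can therefore be counted for either gene, and the sources used here do not say how the authors' counting treated them. Between 1.59% and 4.63% of the windows of HSP90AA1, HSP90AB1, HSPB1 and HSPD1 were shared, and none of those of HSPA8, HSPH1, DNAJB1 and BAG3. The 42 listed pseudogenes of these families all stayed below a mean FPKM of 1 and reached at most 1.5 FPKM.

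Levels are in FPKM, reads divided by gene length and library size, so the order of genes and their summed levels depend on the lengths used. The length implied by the values was 1296 bases for HSP90AA1, whose longest transcript has 3510. For HSP90AB1 it was 2613, and its longest transcript has 2674. In the KYSE70 plasmid control these 2 genes held 99718 and 87734 reads. The libraries held 26401805 to 37937856 reads, recovered from the steps of the FPKM values. Of 8 squamous epithelial markers, 7 or 8 stood at 1 FPKM or more in every library, with summed levels of 7493 to 26250 FPKM. All 6 leukocyte markers were below 1 FPKM everywhere (sum 0.231 to 1.52). Of 6 fibroblast markers, COL1A1 and COL3A1 accounted for most of a sum of 27.1 to 52.3 FPKM, and the 3 listed endothelial markers summed to 0.742 to 4.29. The KYSE70 knockdown library had 8.63% of its FPKM sum in mitochondrially encoded genes, against 3.84% to 5.75% in the others. Changes in that knockdown pair also followed GC content across genes (Spearman −0.483 over 13914 genes, against 0.039 to 0.071 in the other pairs). In bulk RNA, fewer cells of a kind and less RNA per cell cannot be told apart.

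The members differed widely in level in KYSE70, with the HSP90 genes, HSPA8 and HSPD1 at the top and HSPA1A at the bottom. Their summed level was 8851 and 8751 FPKM in the KYSE70 plasmid control and overexpression libraries and 8238 and 8287 in those of KYSE450. It was 5512 and 5826 in the KYSE70 lentiviral control and knockdown libraries and 6392 and 6919 in those of KYSE450. The sum was thus lower in each lentiviral library than in each plasmid library, at 0.741% to 0.901% of the FPKM total against 1.08% to 1.17%. In KYSE70 the order by mean over 4 libraries was HSP90AA1, the stress-inducible cytosolic HSP90, at 1997 FPKM (SD 515), HSPA8, the constitutive HSP70, at 1422 (SD 615), HSPD1 (HSP60) at 1367 (SD 230), HSP90AB1, the constitutive HSP90, at 936 (SD 158), and HSPB1 (HSP27) at 700 (SD 256). Below them stood the HSP40 gene DNAJB1 at 405 (SD 67.3), HSPH1 (HSP110) at 204 (SD 32.8), HSPA1B at 142 (SD 46.8), BAG3 at 59.5 (SD 4.73) and HSPA1A at 2.65 (SD 1.43). Neighbours in this order overlapped in range, except at the steps from HSPD1 to HSP90AB1, from DNAJB1 to HSPH1, from HSPA1B to BAG3 and from BAG3 to HSPA1A. In KYSE450 HSP90AA1 also led, at 1946 FPKM (SD 186), followed by HSPB1 at 1574 (SD 740), HSPD1 at 1449 (SD 272), HSP90AB1 at 1078 (SD 108) and HSPA8 at 827 (SD 336). DNAJB1 at 187 (SD 21.2), HSPH1 at 141 (SD 50.0), HSPA1B at 99.9 (SD 28.0), HSPA1A at 84.9 (SD 38.3) and BAG3 at 71.6 (SD 11.2) followed. There the step from HSPA8 to DNAJB1 alone separated neighbours without overlap.

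**Figure D1:**
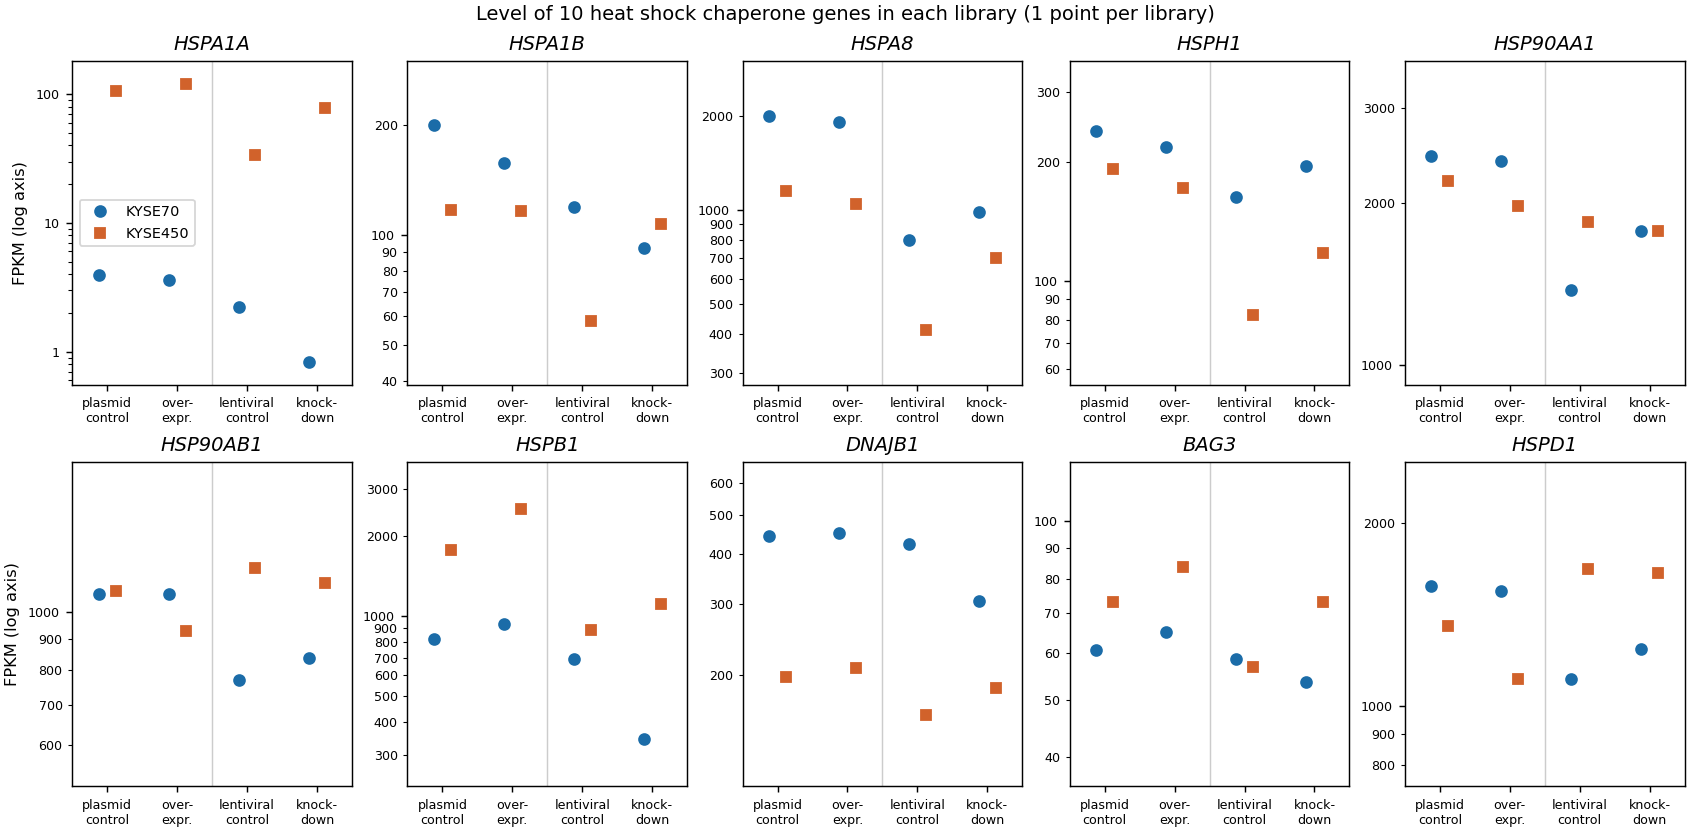
Level of each of the 10 genes in FPKM (log axis, a separate range in each panel), 1 point per library, with the plasmid arm left and the lentiviral arm right of the grey line. HSPA1A sits below 4 FPKM in all KYSE70 libraries and above 33 in all KYSE450 libraries, and HSPA8 is lower in the lentiviral than in the plasmid libraries of both lines.

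The first comparison asks how the lines differ. HSPA1A was 32.0-fold higher in KYSE450 and HSPB1 2.25-fold higher, while DNAJB1 was 2.16-fold higher in KYSE70. These 3 members passed the threshold (limma, adjusted p under 0.05 over all 14311 genes, 4 libraries per line), 1 higher and 2 lower in KYSE70. That is no larger a share than among all genes, of which 50.3% were called between the lines, 24.7% higher and 25.6% lower in KYSE70. The lines did not overlap for HSPA1A and DNAJB1, 2 of 10 members, where 48.6% of all genes did not overlap. The members' median difference was -0.04 on the log2 scale, and that of all genes -0.02.

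HSPA1A, one of the pair of stress-inducible HSP70 genes, stood in KYSE70 at 3.95 FPKM in the plasmid control, 3.62 with overexpression, 2.22 in the lentiviral control and 0.828 with knockdown. Its KYSE450 levels were 106, 121, 33.7 and 78.7 FPKM in the same order. All 4 KYSE450 libraries lay above all 4 KYSE70 libraries, and the fitted difference was -4.51 on the log2(FPKM + 1) scale (SE 0.43, KYSE70 minus KYSE450, adjusted p = 1.93e-05, limma), a scale that understates changes of low genes. HSPA1B, whose protein is identical or nearly so, showed no such gap, at 200.0, 158, 119 and 92.5 FPKM in KYSE70 and 117, 116, 58.4 and 108 in KYSE450, with overlapping lines (0.50, SE 0.28, adjusted p = 0.168, limma). Of the reads of the pair, HSPA1A held 0.912% to 2.30% in the KYSE70 libraries and 37.2% to 51.6% in the KYSE450 libraries. The lowest share, in the KYSE70 knockdown library, rested on 47 HSPA1A reads beside 5107 of HSPA1B (95% Wilson interval 0.686% to 1.21%, counting error only). When the rows were added, the line difference of the pair was -0.32 and did not pass (adjusted p = 0.442, limma), which does not show that the sums are equal. Whether KYSE70 expressed less HSPA1A or its reads were counted for HSPA1B was not tested. Over the other alternatives that kept the rows apart, HSPA1A passed every time.

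**Figure D2:**
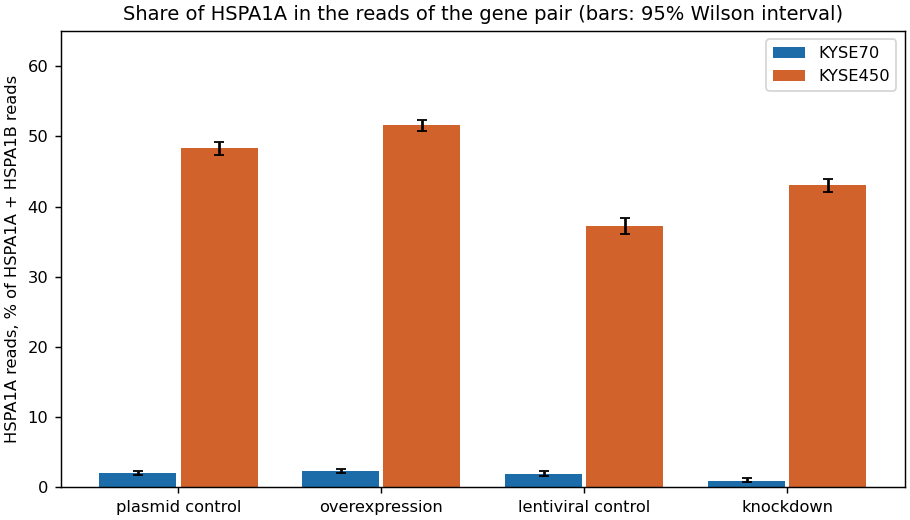
Reads of HSPA1A as a percentage of the reads of HSPA1A and HSPA1B together, by group and line; bars show single libraries and error bars the 95% Wilson interval, which covers counting error only. The KYSE70 bars lie between 0.912% and 2.30% and the KYSE450 bars between 37.2% and 51.6%.

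DNAJB1, the J-domain partner that brings substrates to HSP70, was at 443, 450, 422 and 306 FPKM in KYSE70 (plasmid control, overexpression, lentiviral control, knockdown) and at 197, 208, 159 and 186 in KYSE450. Its lowest KYSE70 value was above its highest KYSE450 value. The fitted difference was 1.10 (SE 0.16, adjusted p = 0.000332, limma), and it passed in all 15 alternatives. HSPB1, the small heat shock protein HSP27, was at 824, 937, 692 and 346 FPKM in KYSE70 and at 1774, 2529, 887 and 1107 in KYSE450. It was higher in KYSE450 in each of the 4 groups, although the lines overlapped, and the difference was -1.14 (SE 0.39, adjusted p = 0.0322, limma). That call was lost without the KYSE70 lentiviral control, the KYSE70 knockdown, the KYSE450 plasmid control or the KYSE450 overexpression library, and also with no filter on low values (0.0775) and after quantile normalization (0.0723); adjusted p ran from 0.00585 to 0.0837 over 15 alternatives.

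The 7 remaining members did not pass between the lines. HSPA8 differed by 0.78 (SE 0.39, adjusted p = 0.125, limma) and HSPH1, an HSP110 that acts as nucleotide exchange factor for HSP70, by 0.59 (SE 0.26, adjusted p = 0.0809). Both were higher in KYSE70 within each of the 4 groups and passed once group was added as a term (adjusted p = 0.00545 and 0.0138, limma; over all alternatives 0.00545 to 0.305 and 0.0138 to 0.182). BAG3, a co-chaperone that links HSP70 to selective autophagy, differed by -0.25, HSP90AB1 by -0.21, HSPD1 by -0.08 and HSP90AA1 by 0.00. After quantile normalization HSPA8 also passed (1.02, adjusted p = 0.028, limma), and BAG3 did once GC and length trends were removed (-0.32, adjusted p = 0.044). Leaving out the KYSE450 plasmid control brought HSPH1 past the threshold (0.76, adjusted p = 0.035, limma), and leaving out the KYSE450 lentiviral control did so for BAG3 (-0.36, adjusted p = 0.0439, with 0.363 the highest of its 15 alternatives).

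Among related genes, the small heat shock proteins CRYAB and HSPB8 were higher in KYSE70, unlike HSPB1, and the TRiC chaperonin mostly lower. Of 93 related chaperone and heat shock genes tested in 10 lists, 23 were called higher and 27 lower in KYSE70 (24.7% and 25.6% of all genes). In the list of other small heat shock proteins, 3 of 7 genes passed the filter, and all 3 were called higher in KYSE70, HSPB11 by 0.69. CRYAB (alphaB-crystallin) stood at 211 to 268 FPKM there against 0.629 to 1.26 in KYSE450 (6.94, SE 0.15, adjusted p = 3.55e-09, limma), and HSPB8, the partner of BAG3, at 25.9 to 40.8 against 0.0640 to 0.128 (5.03, SE 0.17, adjusted p = 2.25e-08). In the TRiC and prefoldin list, the cytosolic chaperonin and its co-chaperone, 9 of 14 were lower in KYSE70 and 3 higher, with a median of -0.64 (CCT3 -0.98, CCT4 -0.84). Of 13 other J-domain genes 2 were higher and 4 lower, with DNAJA4 at -4.14 (SE 0.17), with a range of 0.666 to 1.04 FPKM in KYSE70 against 25.5 to 36.6 in KYSE450. HSF1 itself was higher in KYSE70 (0.84, SE 0.14, adjusted p = 0.000947, limma) and its binding protein HSBP1 lower (-1.06, SE 0.18). Of 15 HSP90 co-chaperones 3 were higher, FKBP5 among them (1.79), and 5 lower, including the myosin chaperone UNC45A (-1.94). Of 6 other HSP70 and HSP110 genes 2 were higher, HSPA4L at 1.63 among them, and 1 lower, HSPA1L (-1.28). The remaining lists split likewise: nucleotide exchange factors 2 and 1 of 6, mitochondrial chaperones and proteases 3 and 3 of 11, endoplasmic reticulum chaperones 1 and 2 of 15, and other heat-inducible genes 5 and 2 of 11, higher and lower in KYSE70.

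The second comparison sets the arms against each other, over control and treated libraries alike. HSPA8, HSPA1A, HSPB1 and HSPH1 were lower in the lentiviral arm, and no member was called higher there. These 4 of 10 members passed with a lower level (limma with a term for the line, 4 libraries per arm), against 4.35% of all genes, and 0 passed with a higher level, against 10.0%. Over all genes 1432 were called higher and 623 lower, 69.7% of the calls higher; the split was 54.2% higher after median-ratio scaling and 51.3% after quantile normalization, with 5 and 3 members called lower. HSPA1B was the fifth under median-ratio scaling, and quantile normalization lost HSPH1. HSPA8 alone was called with no filter on low values, without the KYSE450 lentiviral control, and without any of the 4 plasmid libraries. Without each of the other libraries 3 members were called, among them HSPA1B where the KYSE450 knockdown library was left out. The lentiviral libraries lay below the plasmid libraries without overlap in both lines for 7 of 10 members, against 10.6% of all genes, and above them for 0, against 20.0%. The members' median was -0.52 (-0.52 within KYSE70, -0.41 within KYSE450), while that of all genes was 0.07. Arm cannot be told apart from anything else that differed between the arms, such as delivery, timing, sequencing or whatever set the hairpin cells apart from the transfected cells.

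HSPA8, the most abundant HSP70 among the members, was at 1991 FPKM in the KYSE70 plasmid control and 1909 with overexpression, against 803 in the lentiviral control and 985 with knockdown. In KYSE450 it was at 1149 and 1045 in the plasmid arm and 413 and 703 in the lentiviral arm. The arms did not overlap in either line, with mean levels 2.18-fold and 1.97-fold higher in the plasmid arm, KYSE70 first. The fitted difference was -1.08 (SE 0.18, adjusted p = 0.0101, limma), and it passed without each of the 8 libraries in turn (adjusted p 0.00970 to 0.0452). It was lost when the line term was dropped (adjusted p = 0.266, the highest of 15 alternatives, the lowest being 0.00738).

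HSPA1A, with the values given above, had means 2.49-fold and 2.02-fold higher in the plasmid arm and a fitted difference of -1.05 (SE 0.26, adjusted p = 0.0336, limma). HSPA1B was 1.69-fold and 1.41-fold higher there and just missed the threshold (-0.65, SE 0.19, adjusted p = 0.0519). HSPA1B passed in 4 of 16 alternatives: median-ratio scaling, voom, the summed pair and the fit without the KYSE450 knockdown library (adjusted p 0.0223 to 0.402 over the 16, limma). The arms did not overlap within either line for both genes. The rows added together stood at 204, 161, 122 and 93.3 FPKM in KYSE70 and at 224, 237, 92.1 and 186 in KYSE450, and their sum passed (-0.78, adjusted p = 0.0389, limma), so the arm difference, unlike the line difference, was also called for the sum. The call of HSPA1A alone was lost when any one of 6 libraries was left out, all except the KYSE70 lentiviral control and the KYSE450 knockdown (adjusted p 0.0264 to 0.0862 over the 8).

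HSPB1 had means 1.70-fold and 2.16-fold higher in the plasmid arm (-0.97, SE 0.23, adjusted p = 0.0274, limma). HSPH1 was at 239 and 218 FPKM in the KYSE70 plasmid arm and 163 and 195 in the lentiviral arm, and at 191 and 172 against 82.1 and 118 in KYSE450. Its difference was -0.62 (SE 0.16, adjusted p = 0.0361, limma). Neither gene's arms overlapped within a line, but both calls depended on single libraries. The HSPB1 call remained only without the KYSE70 lentiviral control or the KYSE70 knockdown library (adjusted p 0.0115 to 0.0794 over the 8), and the HSPH1 call only without the KYSE70 knockdown library (0.0181 to 0.113).

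The other members showed smaller differences between the arms, and none of them passed. HSP90AA1 was at 2448 and 2391 FPKM in the KYSE70 plasmid arm against 1376 and 1774 in the lentiviral arm, and at 2194 and 1976 against 1841 and 1774 in KYSE450, without overlap in either line (-0.42, SE 0.16, adjusted p = 0.107, limma). DNAJB1, also without overlap within a line, differed by -0.27 (SE 0.13). BAG3 ranged from 53.6 to 65.1 FPKM in KYSE70 and in KYSE450 from 56.7 to 83.8, and differed by -0.22 (SE 0.12). In KYSE450 its knockdown library, at 73.1, stood just above its plasmid control, at 72.9.

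HSP90AB1 and HSPD1 differed between the arms in opposite directions in the lines. HSPD1, the matrix chaperonin, was at 1573 and 1547 FPKM in the KYSE70 plasmid arm and 1109 and 1238 in the lentiviral arm, but at 1352 and 1108 against 1678 and 1657 in KYSE450. HSP90AB1 was at 1069 and 1072 against 768 and 836 FPKM in KYSE70, and at 1084 and 929 against 1184 and 1116 in KYSE450. For both genes the arms were apart without overlap in each line, lower in lentiviral KYSE70 and higher in lentiviral KYSE450. In the test of whether the arm difference itself differed between the lines, 0 of 10 members passed (limma; 2 had an unadjusted p under 0.05, and voom on recovered reads also called 0), while 6.88% of all genes did (5.28% higher and 1.6% lower). The difference of differences was -0.86 for HSPD1 (SE 0.24, adjusted p = 0.0731, limma) and -0.61 for HSP90AB1 (SE 0.23, adjusted p = 0.133). Calls gained without the KYSE70 lentiviral control or the KYSE70 knockdown library rest on 1 library for that arm and line. They are not read here as results about these genes. Whichever library was left out, both differences stayed negative, at most -0.715 for HSPD1 and -0.501 for HSP90AB1. Over the 6 alternatives that kept all libraries neither gene passed. The adjusted p of HSPD1 ran there from 0.0502 to 0.234 and that of HSP90AB1 from 0.0527 to 0.344 (limma). The median of all genes in this test was 0.12, and it was 0.02 after median-ratio scaling and 0.00 after quantile normalization; called genes were 76.7% higher, and 62.4% and 59.2% under those scalings.

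**Figure D3:**
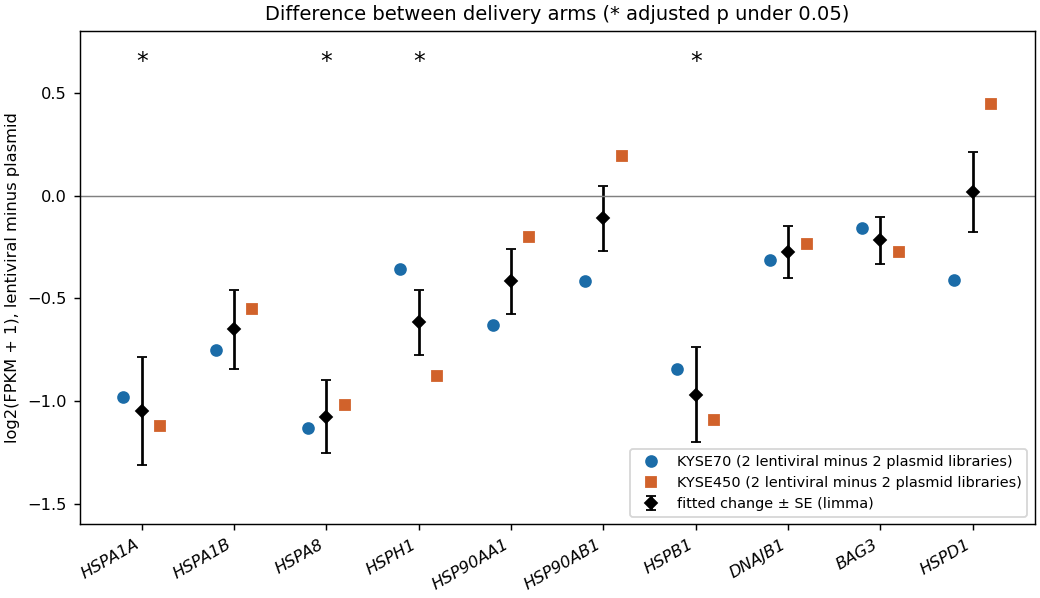
Difference between the lentiviral and the plasmid arm in log2(FPKM + 1) for each gene, per line (mean of 2 libraries minus mean of 2) and as fitted over both lines with its standard error; asterisks mark the 4 genes with an adjusted p under 0.05. HSP90AB1 and HSPD1 lie below 0 in KYSE70 and above it in KYSE450, and the other 8 lie below 0 in both.

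Summed squamous marker levels also differed between the arms, and were lower in the lentiviral libraries within each line. They stood at 7493 and 9429 FPKM against 12420 and 15520 in KYSE70, and at 9870 and 13680 against 18840 and 26250 in KYSE450. Each sum was also higher in the treated library than in its control. Much of a sum came from 1 marker, as with 14240 of 18840 FPKM in the KYSE450 plasmid control. The markers did not move together: of the 8, 5 had fitted values below 0 and 3 above. KRT5 was called lower (-1.15) and TP63 higher (0.87). The part of these markers in the chaperone differences was not tested. The leukocyte, fibroblast and endothelial markers gave 0 called genes between the arms, of 0, 2 and 1 that passed the filter.

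Among the related genes, 4 of 93 were called higher and 3 lower in the lentiviral arm (10.0% and 4.35% of all genes). The 3 lower genes were DNAJA1, a farnesylated J-domain partner of HSP70, the HSP70 nucleotide exchange factor BAG1, and SERPINH1, the collagen chaperone HSP47 of the endoplasmic reticulum. DNAJA1 was at 409 and 388 FPKM in the KYSE70 plasmid arm against 225 and 161 in the lentiviral arm, and at 228 and 214 against 102 and 110 in KYSE450 (-1.06, SE 0.12, adjusted p = 0.00379, limma). BAG1 differed by -1.15 (SE 0.17, adjusted p = 0.00761) and SERPINH1 by -0.92 (SE 0.21, adjusted p = 0.0231). Higher were HSPA13, a microsomal HSP70 (0.90, SE 0.18, adjusted p = 0.0156, limma), the J-domain protein DNAJB9 of the endoplasmic reticulum (0.85, SE 0.21), GRPEL2, which resets mitochondrial HSP70 (0.72, SE 0.17), and HSF4 (0.51, SE 0.14, adjusted p = 0.0485).

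By list, the medians between the arms ran from -0.26 to 0.30, so no list lay as low as the 10 members (-0.52). The 6 nucleotide exchange factors had -0.26 with 1 called lower, 11 other heat-inducible genes -0.23 with 1 lower, 15 HSP90 co-chaperones -0.23 with 0 called, and 13 other J-domain genes -0.16 with 1 lower. For 14 TRiC and prefoldin genes the median was -0.13 (-0.43 within KYSE70, 0.29 within KYSE450) and for 15 endoplasmic reticulum chaperones -0.03 (-0.40 and 0.28), the latter with 1 called in each direction. The 11 mitochondrial chaperones and proteases had 0.30 (-0.07 and 0.54) with 1 higher, 6 other HSP70 and HSP110 genes 0.19 with 1 higher, 4 heat shock factors 0.27 with 1 higher, and 3 small heat shock proteins -0.08 with 0 called. Medians also had opposite signs in the lines for the HSP90 co-chaperones (-0.33 in KYSE70, 0.0093 in KYSE450), the small heat shock proteins (-0.12, 0.04) and, the other way round, the J-domain genes (0.02, -0.07).

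**Figure D4:**
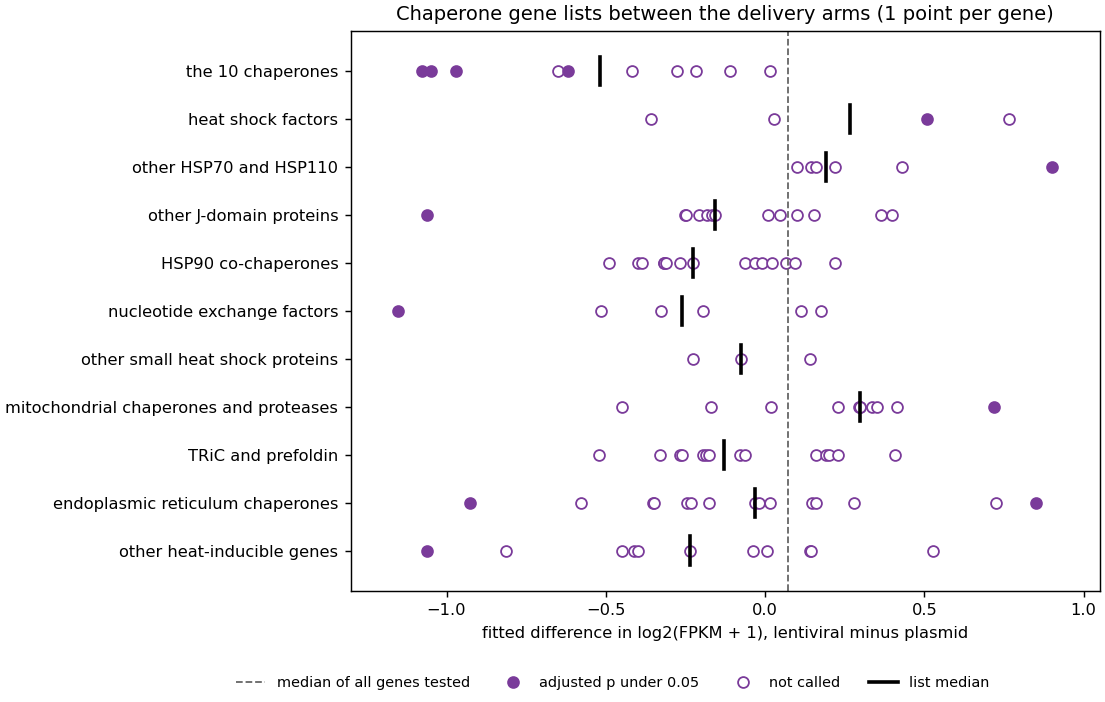
Fitted difference between the arms in log2(FPKM + 1) for each gene of the 10 related lists and the 10 chaperones, 1 point per gene; filled points passed an adjusted p of 0.05, black bars mark list medians and the dashed line the median of all genes tested. The median of the 10 chaperones lies at -0.52 and those of the lists between -0.26 and 0.30.

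In the controls alone HSPA8, HSPH1, HSPA1A and HSPA1B were again lower in the lentiviral arm; these libraries are part of the arm comparison, so this is no separate evidence. HSPA8 was 2.48-fold higher in the plasmid than in the lentiviral control of KYSE70 and 2.78-fold in KYSE450 (lentiviral minus plasmid -1.39, SE 0.22, adjusted p = 0.107, limma). HSPH1 differed by -0.88 (SE 0.21, adjusted p = 0.185), HSPA1A by -1.13 (SE 0.42, adjusted p = 0.30) and HSPA1B by -0.87 (SE 0.29, adjusted p = 0.264). HSPB1, called between the arms, differed less clearly between the controls (-0.62, SE 0.33, adjusted p = 0.434, limma). Its difference was -0.25 within KYSE70 and -1.0 within KYSE450. In KYSE70 it stood at 824 FPKM in the plasmid control, 692 in the lentiviral control and 346 with knockdown. No member passed (0 of 10 in limma and in voom, 4 and 5 at an unadjusted p under 0.05), nor did any gene (0.0% of 14311, 2078 at an unadjusted p under 0.05). In both lines 8 of 10 members were lower in the lentiviral control, where 24.3% of all genes were; 0 were higher in both (37.1%) and 2, HSP90AB1 and HSPD1, had opposite signs (38.1%). The members' median was -0.58 against 0.07.

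The third comparison asks what NMR overexpression did, and no member passed. The limma fit called 0 of 10 members and 0.0% of all genes, with 0 members and 148 genes at an unadjusted p under 0.05, and voom called 0 members as well. HSPB1 was higher with overexpression in both lines, 937 against 824 FPKM in KYSE70 and 2529 against 1774 in KYSE450 (0.35, SE 0.31, adjusted p = 1.0, limma, n = 2 pairs). BAG3 was higher in both, 65.1 against 60.5 and 83.8 against 72.9 FPKM (0.15, SE 0.16), as was DNAJB1 (0.05, SE 0.20). With these, 3 of 10 members were higher in both lines (23.0% of all genes), 5 were lower in both (27.6%) and 2, HSPA1A and HSP90AB1, differed in sign (48.7%). The members' median was -0.10 and that of all genes -0.01. In the TRiC and prefoldin list all 14 fitted values were below 0 (median -0.12), against 7652 of all 14311 genes. None of the 93 related genes passed.

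The fourth comparison asks what knockdown did. Only HSPA8 and HSPH1 were higher with knockdown in both lines, and no member passed over both. HSPA8 went from 803 to 985 FPKM in KYSE70 and in KYSE450 from 413 to 703 (0.53, SE 0.20, adjusted p = 0.377, limma), and HSPH1 from 163 to 195 and from 82.1 to 118 (0.38, SE 0.15, adjusted p = 0.377). These 2 of 10 compare with 27.1% of all genes higher in both lines. None was lower in both, against 25.9%, and 8 had opposite signs, against 46.4%. The limma fit called 0 of 10 members and 0.0% of all genes (2 members and 1794 genes at an unadjusted p under 0.05), and voom called 0 members and 4 genes. The knockdown and arm comparisons share the lentiviral control libraries: with knockdown, HSPA8 and HSPH1 stood above that control and below both plasmid libraries of the line.

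The 8 members of opposite sign split in 2 ways. HSPB1 fell short of its control with knockdown in KYSE70, 346 against 692 FPKM (ratio 0.499, 95% exact counting interval 0.487 to 0.512), and exceeded it in KYSE450, 1107 against 887 (ratio 1.25). HSPA1A went from 2.22 to 0.828 FPKM in KYSE70 (ratio 0.373, interval 0.261 to 0.526, from 126 and 47 reads) and from 33.7 to 78.7 in KYSE450 (2.34, interval 2.23 to 2.45). HSPA1B had ratios of 0.775 and 1.84, DNAJB1 of 0.724 and 1.17, and BAG3 of 0.915 and 1.29, so these 5 genes were lower in KYSE70 and higher in KYSE450. HSP90AA1 had ratios of 1.29 and 0.963, HSP90AB1 of 1.09 and 0.942 and HSPD1 of 1.12 and 0.988, the reverse. Each ratio compares 1 library with 1 library, the intervals cover counting error only, and no test of the difference between the lines was made. The KYSE70 knockdown library is the one with the high mitochondrial share and the trend on GC content given above. The 5 members lower with knockdown in KYSE70 had longest transcripts of 53.05% (DNAJB1) to 64.33% GC (HSPB1). The members higher there, HSPA8 and HSPH1 included, had 39.95% (HSPH1) to 48.13% (HSP90AB1). The direction of the members in KYSE70 thus followed GC content, as did the trend over all genes. The part of the mitochondrial share and of GC content in these values was not tested. With either library of a line's knockdown pair left out, the fit rests on the other line, and its 1 pair is taken to vary like the overexpression pairs. The change of HSPA1A was then -0.82 without the KYSE450 control and 1.20 without the KYSE70 control. Calls in such fits rest on 1 pair and are not read here as results about the members.

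**Figure D5:**
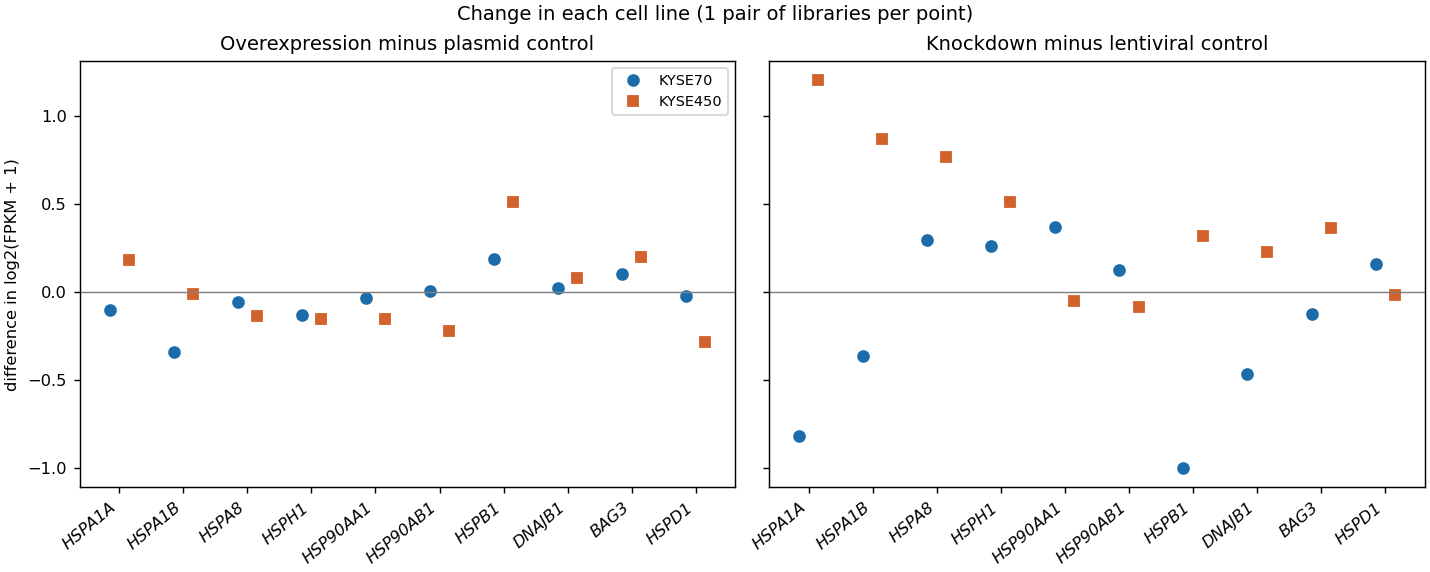
Difference in log2(FPKM + 1) of treated against control in each line, for overexpression (left) and knockdown (right), 1 pair of libraries per point and so without error bars. Overexpression values lie between -0.34 and 0.51, knockdown values between -1.0 and 1.20, and with knockdown 8 of 10 genes have opposite signs in the lines.

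None of the 93 related genes passed with knockdown. The mitochondrial list had 10 of 11 fitted values below 0 (median -0.24), and TRiC and prefoldin 12 of 14 (median -0.11), against 7210 of all 14311 genes. CLPP, the matrix protease subunit, was at -0.83 (SE 0.25, adjusted p = 0.338, limma). The 10 members had 8 above 0 (median 0.14, with 0.00 in KYSE70 and 0.34 in KYSE450), against 7101 of all genes (median 0.00). Only 2 members were higher in both lines, so the 8 do not show a shared rise. NUDC, an HSP90 co-chaperone, was at -0.76 (SE 0.25, adjusted p = 0.352, limma), the ubiquitin gene UBB at -0.73 (SE 0.30) and the lectin chaperone CANX at 0.49 (SE 0.19).

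The members followed each other to different degrees once the line means were removed. Over the 8 libraries, the correlation of a member with the members' mean profile was 0.954 for HSPA8, 0.943 for HSPA1B and 0.915 for HSPA1A, between 0.778 and 0.835 for HSPH1, HSP90AA1, HSPB1, DNAJB1 and BAG3, 0.446 for HSP90AB1 and 0.177 for HSPD1. These values describe the libraries, each member contributes to the profile, and the points share their library and arm. Of 8562 genes with a mean of at least 10 FPKM, those with a profile most like it were SAMD1 and SLC38A7 (Pearson r 0.995), TMEM203 (0.987), ALG8 (0.986) and EMC10 (0.985). SAMD1 was at 99.2 and 98.5 FPKM in the KYSE70 plasmid arm and 54.0 and 46.9 in the lentiviral arm, and at 56.6 and 50.9 against 31.8 and 43.3 in KYSE450.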

How the data were processed

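Each of the 8 deposited files holds the values of 1 library. The deposited values were taken as FPKM, already divided by gene length and library size by the authors before deposit. No header or label names this unit, so it was inferred from the values. In all 30872 genes above 0 in 2 or more libraries, each value was scaled by a factor for its library. Every scaled value came within 0.02 of a whole multiple of the gene's own step (100% of genes). That step was chosen from the gene's own values, so with few libraries above 0 some step can pass whatever the unit. For such genes the 100% does not test whether the unit is FPKM. The build hg19 and the tools TopHat2 2.0.9 and HTSeq 0.6.1 appear in the submitters' processing notes, with no role stated; the sources used here do not give the annotation, the filters or the strandedness. Reads carry no molecular identifiers, so counting intervals cover counting error only.

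A minimum mean FPKM of 1 left 14311 genes, which were fitted as log2(FPKM + 1) with limma 3.58.1 (trend, R 4.3.3), Benjamini-Hochberg over all of them, threshold 0.05. The line was tested alone, arm with line, their interaction, the controls with line and group, and overexpression and knockdown with a term per pair. Replicate 1 is KYSE70 and 2 is KYSE450 in every group, and deviations from group means correlated at 0.805 to 0.971 between libraries of a line, so the line pairs the libraries. Related genes were named by smallest p with the same sign in both lines, at most 2 per list and comparison; some members of the lists that this rule takes are given only in counts. The fits were run on simulated data with known changes and independent normal errors of the size the same fits estimated. Such data cannot show whether the p-values hold for libraries that may not be separate cultures. Alternatives were another pseudocount, filter, scaling, block or set of libraries, voom on recovered reads, and removal of GC and length trends. The members, lists and tests were chosen with earlier results of these data known. Gene names come from the files, sequences from RefSeq (GRCh38.p14, all 10 members matched) and transcripts from GENCODE 29.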

Additional observations from a re-analysis of the deposited data

Results flagged for a closer look

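In 3 of 40 groups of 4 libraries checked, 1 library stood far from the others. The groups mix treatments with lines or arms and share libraries, so no chance rate can be set beside this count. HSPA1B was at 58.4 FPKM in the KYSE450 lentiviral control, far below the other KYSE450 libraries. HSP90AA1 was at 1376 FPKM in the KYSE70 lentiviral control, below the other lentiviral libraries. HSP90AB1 was at 929 FPKM in the KYSE450 overexpression library, below the other plasmid libraries.

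A further 12 differences had opposite signs in the lines, with 1 pair of libraries per line and no test of the difference. Values are the KYSE70 change minus the KYSE450 change in log2(FPKM + 1). With knockdown they were -2.02 for HSPA1A, -1.32 for HSPB1, -1.23 for HSPA1B, -0.69 for DNAJB1 and -0.49 for BAG3, and 0.42 for HSP90AA1, 0.21 for HSP90AB1 and 0.18 for HSPD1. With overexpression they were -0.28 for HSPA1A and 0.23 for HSP90AB1. Between the controls, lentiviral minus plasmid, they were -0.82 for HSPD1 and -0.60 for HSP90AB1.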

How the results depend on the processing

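Over single members, 341 of 370 values under alternatives other than leaving out a library kept their direction and side of the threshold, 11 lost the call, 7 gained one and 11 changed sign; when a library was left out the numbers were 297, 23, 19 and 29 of 368. Without the replicate block, 0 members and 10 genes were called between the arms, and the block changed no other count of members called. Without the filter the arms gave 1 member and 721 genes. With group as a term 5 of 10 members and 7726 of 14311 genes were called between the lines. For overexpression the arm's 4 libraries alone gave 12 genes. For knockdown they gave 37, pseudocount 0.1 gave 3 and voom 4. The interaction gave 1483 genes after removal of GC and length trends, 118 without the filter and 571 after quantile normalization. Sign changed between the lines for HSPA1B as the summed pair (-0.32), HSP90AA1 after median-ratio scaling (-0.00036), HSP90AB1 after quantile normalization (0.15) and HSPD1 after GC correction (0.0045) and quantile normalization (0.30). It changed between the arms for HSPD1 after median-ratio scaling (-0.0615), and with overexpression for HSPA1A as the summed pair (-0.13). With knockdown it changed for HSPA1A at pseudocount 0.1 (-0.0499), HSP90AB1 after GC correction (-0.0487) and DNAJB1 after GC correction (0.0450) and quantile normalization (0.0024). The cause of these changes was not tested. Leaving out each library in turn gave 2 to 4 members and 6266 to 7722 genes between the lines, 1 to 3 and 484 to 2504 between the arms, 0 to 2 and 36 to 5244 for the interaction, 0 to 4 and 36 to 4833 with knockdown, 0 and 0 to 12 with overexpression, and 0 and 0 to 11 between the controls. The largest knockdown counts came without either KYSE450 library, where the KYSE70 pair alone remains, and the arm call of HSPA8 held throughout. Ranges that crossed 0 were, between the lines, HSP90AA1 -0.11 to 0.17 and HSPD1 -0.20 to 0.0161; between the arms, HSPD1 -0.13 to 0.13; with overexpression, HSPA1A -0.10 to 0.18 and HSP90AB1 -0.22 to 0.0044; and with knockdown, HSPA1A -0.82 to 1.20, HSPA1B -0.36 to 0.87, HSP90AA1 -0.0539 to 0.37, HSP90AB1 -0.0856 to 0.12, HSPB1 -1.0 to 0.32, DNAJB1 -0.46 to 0.22, BAG3 -0.13 to 0.36 and HSPD1 -0.0177 to 0.16. Depth limits HSPA1A in KYSE70, where 47 to 267 reads stand behind a value.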
